A study of Mus musculus with 28 samples.

Results

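Wnt signalling was examined in mouse tail tendon through 10 genes, chosen by name from the pathway with earlier results of these data known. They were found in the count files by matching each gene identifier to its mouse symbol. They were 10 of the 25719 gene identifiers in the files. Wif1, Sfrp1, Sfrp2, Sfrp4 and Frzb encode secreted proteins that bind Wnt ligands outside the cell. Dkk2 and Dkk3 belong to the Dickkopf family of secreted proteins, of which Dkk2 acts on the Lrp5 and Lrp6 co-receptors. Wnt5a is a ligand that mostly signals without beta-catenin, Lef1 is a transcription factor that beta-catenin binds, and Axin2 is a feedback inhibitor that beta-catenin itself switches on, so that its mRNA is widely used as a readout of the pathway.

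A Wnt ligand binds a Frizzled receptor together with Lrp5 or Lrp6, which stops a cytoplasmic complex from breaking down beta-catenin, and beta-catenin then enters the nucleus and acts with the TCF and LEF factors. Secreted inhibitors limit this signal outside the cell, at the ligand or at the co-receptors. In tendon and other connective tissues Wnt signalling has roles in development, in the choice between stromal cell fates and in fibrosis.

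Tail tendons were profiled by bulk RNA-sequencing with 1 library per mouse, and the mice compared were Fosl-2(Tg) mice and WT mice from the same breeding at an early and at an established stage of disease. The transgene is a randomly inserted vector with murine Fosl2, exons 1 to 4, under the H2Kb promoter, which belongs to the MHC class I locus, with eGFP as a reporter, on a C57BL/6 background. This promoter is active in most cell types and is not restricted to tendon cells. The early cohort held 7 WT and 8 Fosl-2(Tg) mice of 6 to 8 weeks, and the established cohort held 6 WT and 7 Fosl-2(Tg) mice older than 14 weeks. The labels give no age per mouse. No other allele or treatment is given in the labels of either genotype. Males made up all 15 early mice but only 1 mouse of each genotype at the established stage, where the other 11 of 13 were female, so stage and sex could hardly be told apart.

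The libraries held between 9645598 and 66894396 counts on genes, with a median of 18685759. All 10 genes of a tendon fibroblast marker list (Scx, Tnmd, Mkx, Fmod, Thbs4, Col1a1, Col1a2, Dcn, Kera, Comp) averaged over 1 CPM in every group. Fosl2, the gene carried by the transgene, averaged 88.7 CPM ± 26.1 (SD, n = 7) in early WT, 102 CPM ± 40.5 (n = 8) in early Fosl-2(Tg), 111 CPM ± 32.7 (n = 6) in established WT and 143 CPM ± 15.8 (n = 7) in established Fosl-2(Tg) mice. The mice of both genotypes overlapped, and Fosl2 did not pass the test in the early (adjusted p = 0.918) or the established cohort (adjusted p = 0.141; edgeR's quasi-likelihood test with Benjamini-Hochberg adjustment), so its counts do not check the genotype labels.

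The levels of the 10 genes spanned a wide range. Levels between genes are given as CPM (counts scaled to library size with TMM) per kb of exon, and levels of 1 gene between mice as CPM. In early WT mice Wif1 averaged 395 CPM per kb ± 60.2 (SD, n = 7), which placed it at rank 39 of the 20491 genes with a count in that group. Dkk3 followed at 17.9 ± 2.97, Dkk2 at 15.7 ± 3.82 and Axin2 at 6.30 ± 1.98 CPM per kb. Sfrp4 at 2.70 ± 1.68, Wnt5a at 1.25 ± 0.479 and Sfrp1 at 0.827 ± 0.248 CPM per kb stood below them. Sfrp2 at 0.285 ± 0.166, Frzb at 0.0763 ± 0.0687 and Lef1 at 0.00810 ± 0.00709 CPM per kb came last. Wif1 did not overlap the next gene in any of the 4 groups, whereas Dkk3 and Dkk2 overlapped in all groups but early Fosl-2(Tg), and Wnt5a and Sfrp1 overlapped in every group in which they were neighbours. In established Fosl-2(Tg) mice Wif1 stayed the highest of the 10 but stood at rank 113 of 21193 genes, with 117 CPM per kb ± 62.6 (n = 7).

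**Figure D1:**
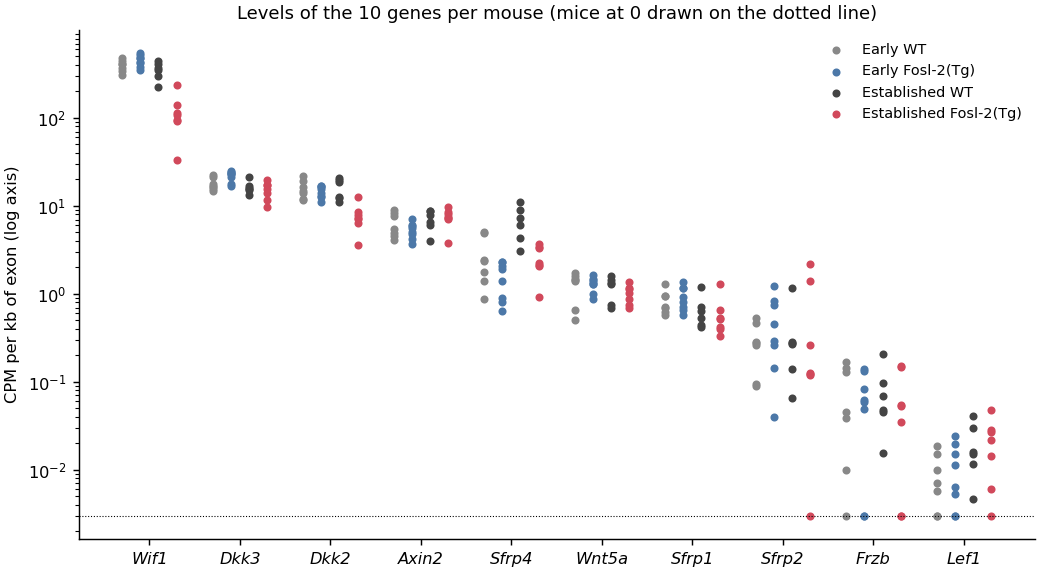
Levels of the 10 genes as CPM per kb of exon (log axis), with 1 point per mouse in the 4 groups and mice at 0 drawn on the dotted line. Wif1 lies above all others in every group, with a mean of 395 CPM per kb in early WT and 117 CPM per kb in established Fosl-2(Tg) mice, and Lef1 lies at the bottom.

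On build GRCm39, Wif1 lies on chromosome 10 from 120869865 to 120936555, Sfrp4 on chromosome 13 from 19807274 to 19817164 and Dkk2 on chromosome 3 from 131790336 to 131886065, all protein-coding genes on the plus strand whose reads were counted per gene.

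Frzb and Lef1 were too low to be tested. Frzb had between 0 and 14 counts per library and Lef1 between 0 and 13, and neither passed the filter on low counts in any comparison. The other 8 genes passed it in all comparisons, and a difference in Frzb or Lef1 was not detectable at this depth.

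The promoter sequences of Wif1 and Dkk2 are shown because both genes fell in the established cohort and their genotype effect differed between cohorts, and that of Axin2 because it is the beta-catenin target among the 10. They are the 250 bases before the annotated start, 5′ to 3′ on the strand of the gene, from RefSeq on build GRCm38.p6, which is older than the build of the counts. Of the 10 genes, 6 were in that table (Sfrp2, Frzb, Wif1, Dkk2, Axin2 and Lef1), and Sfrp1, Sfrp4, Dkk3 and Wnt5a were not. The windows are chr10:121033754-121034003 for Wif1, chr3:132085042-132085291 for Dkk2 and chr11:108920099-108920348 for Axin2, all on the plus strand, and capitals mark a match to TATAAA on either strand.
Wif1: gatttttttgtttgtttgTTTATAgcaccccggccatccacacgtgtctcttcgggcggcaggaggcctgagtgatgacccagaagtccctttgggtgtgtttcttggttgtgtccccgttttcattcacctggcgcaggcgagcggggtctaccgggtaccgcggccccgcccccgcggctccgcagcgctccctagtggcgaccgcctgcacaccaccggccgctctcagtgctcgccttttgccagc
Dkk2: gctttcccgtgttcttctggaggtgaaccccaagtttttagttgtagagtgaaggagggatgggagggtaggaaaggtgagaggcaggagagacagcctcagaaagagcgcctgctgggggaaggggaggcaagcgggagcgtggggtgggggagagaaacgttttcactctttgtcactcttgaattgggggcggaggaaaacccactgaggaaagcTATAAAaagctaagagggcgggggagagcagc
Axin2: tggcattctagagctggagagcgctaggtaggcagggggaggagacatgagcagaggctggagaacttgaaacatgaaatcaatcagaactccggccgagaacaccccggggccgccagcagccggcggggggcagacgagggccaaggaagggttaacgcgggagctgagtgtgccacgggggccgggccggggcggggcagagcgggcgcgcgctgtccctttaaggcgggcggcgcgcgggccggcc

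The AP-1 motif TGANTCA, the binding sequence of the factor family that Fosl2 belongs to, was searched on both strands and matched none of the 9 windows of the 6 genes, and 6.75% of all 32851 promoter windows of this length held it. The TCF/LEF motif CTTTGAT, searched in the same way, matched none of them either and was held by 3.21% of all windows. TATAAA lay 32 to 27 bases before the start of Dkk2 on the strand of the gene, and on the opposite strand 232 to 227 bases before the start of Wif1 and 231 to 226 bases before that of 1 of the 4 Lef1 windows, while 12.4% of all windows held it. These searches describe letters in short windows and say nothing of binding, and sites outside the windows were not searched.

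In the early cohort, which addresses whether transgenic tendons already differ before the established stage, none of the 8 tested genes passed a false discovery rate (FDR, the adjusted p) of 0.05 with edgeR, against 0.0396% of all 15138 genes tested. DESeq2 and limma voom also called 0 of the 10. At an unadjusted p under 0.05, which 6.06% of all genes reached, Sfrp4 and Dkk3 passed in opposite directions. The median log2 fold change of the 8 genes was 0.10, and that of all genes tested was -0.01.

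In the established cohort 3 of the 8 tested genes fell in Fosl-2(Tg) tendons: Wif1, Sfrp4 and Dkk2. Each encodes a secreted Wnt inhibitor or modulator. Most of the tested genes are of this class, since Sfrp1, Sfrp2 and Dkk3 belong to it too, and those did not pass the test. Of all 15862 genes tested, 6.51% passed the FDR and 3.37% passed it with a lower level in Fosl-2(Tg) mice. None of the 8 genes rose. The genes were chosen with earlier results of these data known, so these shares are no test of the list. The 3 genes also had a log2 fold change of -1 or below, as did 1.16% of all genes tested that passed the FDR as well. The median log2 fold change of the 8 genes was -0.17, beside 0.01 for all genes tested.

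Wif1, which encodes Wnt inhibitory factor 1, ranged from 569 to 1104 CPM in established WT mice (median 906) and from 82.5 to 596 CPM in established Fosl-2(Tg) mice (median 269). The groups overlapped by 1 mouse on each side, since the Fosl-2(Tg) mouse with 596 CPM lay just above the lowest WT mouse, which was the only WT male of the cohort. The mean fell from 880 CPM ± 196 (SD, n = 6) to 294 CPM ± 157 (n = 7), so the WT mean was 2.99 times the Fosl-2(Tg) mean. The log2 fold change was -1.58 ± 0.32 (SE), with an adjusted p of 0.0192 by edgeR's quasi-likelihood test with Benjamini-Hochberg adjustment. Among the 11 females alone the log2 fold change was -1.51 (adjusted p = 0.0116, edgeR). In bulk tendon, fewer cells of a type and less RNA per cell cannot be told apart.

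In the early cohort Wif1 ranged from 770 to 1203 CPM in WT (median 1028) and from 877 to 1360 CPM in Fosl-2(Tg) mice (median 1150). The 2 genotypes overlapped over most of that range, and the log2 fold change was 0.20 ± 0.12 (SE; edgeR adjusted p = 0.847). The established effect minus the early effect was -1.78 ± 0.34 (SE) on the log2 scale (edgeR interaction term, adjusted p = 0.00444), so the change in Wif1 differed between the cohorts.

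Sfrp4, a secreted Frizzled-related protein, ranged from 12.7 to 46.0 CPM in established WT mice (median 27.99) and from 3.897 to 15.3 CPM in established Fosl-2(Tg) mice (median 9.32). Of the WT mice, only the male (12.7 CPM) lay within the Fosl-2(Tg) range. The mean fell from 28.4 CPM ± 12.4 (SD, n = 6) to 10.6 CPM ± 4.06 (n = 7), a WT mean 2.67 times as high, with a log2 fold change of -1.41 ± 0.32 (SE; edgeR adjusted p = 0.0241). In the early cohort WT mice had 3.70 to 21.3 CPM (median 9.86) and Fosl-2(Tg) mice 2.67 to 9.63 CPM (median 6.97), with a log2 fold change of -0.79 ± 0.37 (SE; unadjusted p = 0.0472 and adjusted p = 0.818, edgeR). The 2 WT mice above 20 CPM were the only early mice clearly apart from the rest. Unlike Wif1, the difference between the cohorts did not pass the test for Sfrp4 (-0.62 ± 0.52 SE, edgeR adjusted p = 0.467), with a 95% interval from -1.69 to 0.44.

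Dkk2 ranged from 46.5 to 87.7 CPM in established WT mice (median 66.8) and from 15.4 to 53.7 CPM in established Fosl-2(Tg) mice (median 31.2). A single Fosl-2(Tg) mouse, the same one that had the highest Wif1, lay within the WT range, and the next one had 35.9 CPM. The mean fell from 67.2 CPM ± 18.3 (SD, n = 6) to 32.4 CPM ± 11.5 (n = 7), a WT mean 2.07 times as high, with a log2 fold change of -1.05 ± 0.24 (SE; edgeR adjusted p = 0.0245). In the early cohort the WT mice had 49.1 to 93.8 CPM (median 62.0) and the Fosl-2(Tg) mice 47.4 to 72.2 CPM (median 62.7), and the log2 fold change was -0.12 ± 0.14 (SE; edgeR adjusted p = 0.919). The established effect minus the early effect was -0.94 ± 0.28 (SE; edgeR interaction term, adjusted p = 0.0371). The Dkk2 difference lay close to the threshold and was not called with limma voom (adjusted p = 0.0571), in established females alone or in 13 of 28 fits with 1 mouse left out (edgeR adjusted p at most 0.0713), whereas that of Wif1 was called in all of these. Wif1 and Dkk2 were 2 of the 8 tested genes called for this difference, and 7.43% of all 16082 genes were called, 4% with a more negative effect in the established cohort.

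**Figure D2:**
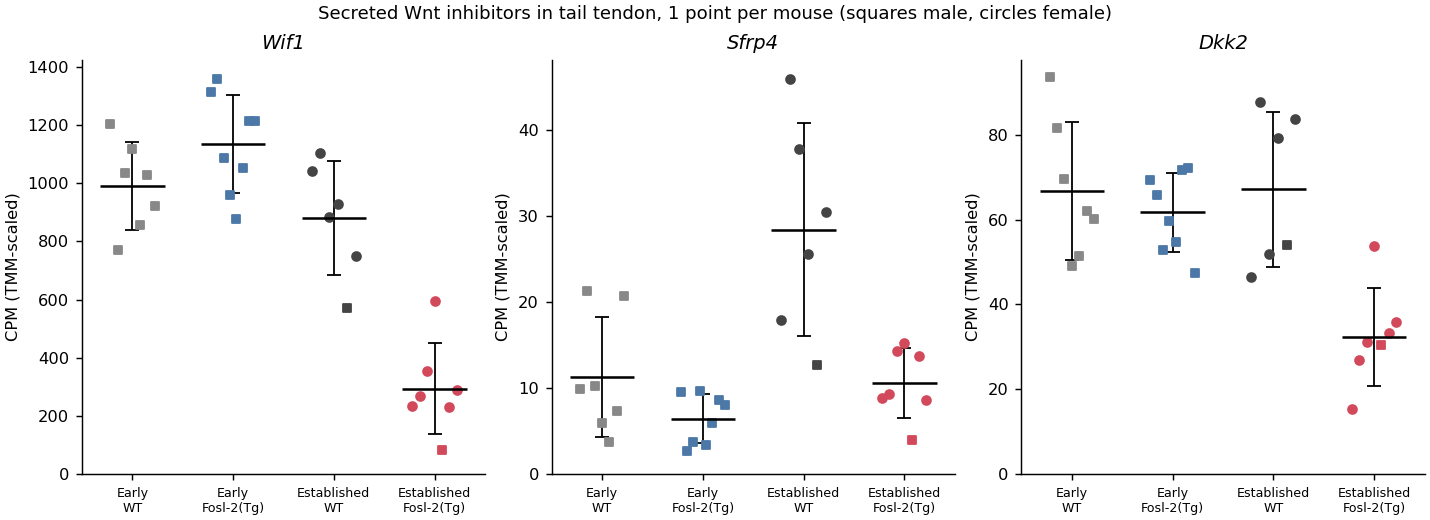
CPM of Wif1, Sfrp4 and Dkk2 in each mouse (squares male, circles female), with group means as lines and SD as error bars. Established Fosl-2(Tg) mice lie between 82.5 and 596 CPM for Wif1, 3.897 and 15.3 CPM for Sfrp4 and 15.4 and 53.7 CPM for Dkk2, lower than most established WT mice.

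The calls for Sfrp4 and Dkk2 lay close to the threshold. Without Fosl-2(Tg) replicate 1, Fosl-2(Tg) replicate 2 or WT replicate 2 the edgeR adjusted p of Sfrp4 was 0.0524, 0.0504 and 0.0573. For Dkk2 it was 0.0513 without Fosl-2(Tg) replicate 2 and 0.0576, 0.053 and 0.0504 without WT replicates 2, 4 and 6, while Wif1 stayed past the threshold whichever of the 13 mice was left out. No member of the list had every Fosl-2(Tg) mouse below every WT mouse, which was the case for 2.33% of all genes.

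The remaining 5 tested genes did not pass the test in either cohort. Axin2 ranged from 27.8 to 61.3 CPM in established WT mice (median 50.3) and from 26.1 to 67.7 CPM in established Fosl-2(Tg) mice (median 51.8). The groups overlapped almost completely, with a log2 fold change of 0.08 ± 0.20 (SE; edgeR adjusted p = 0.822) and a 95% interval from -0.35 to 0.52. In the early cohort Axin2 had 28.6 to 61.6 CPM in WT (median 38.3) and 25.9 to 49.6 CPM in Fosl-2(Tg) mice (median 36.9), a log2 fold change of -0.24 ± 0.18 (SE; edgeR adjusted p = 0.876). The level of this beta-catenin target was not measurably different where Wif1, Sfrp4 and Dkk2 were lower. The interval leaves room for a change in either direction.

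Dkk3, a divergent Dickkopf family member, had 102 to 155 CPM in early WT (median 114) and 116 to 169 CPM in early Fosl-2(Tg) mice (median 159). Its log2 fold change was 0.29 ± 0.11 (SE) in the early cohort (unadjusted p = 0.0178, adjusted p = 0.748, edgeR) and -0.11 ± 0.15 in the established cohort (adjusted p = 0.663). The established Dkk3 levels were 90.6 to 146 CPM in WT and 66.5 to 135 CPM in Fosl-2(Tg) mice, which overlapped.

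Wnt5a, the only ligand of the 10, had 5.55 to 12.8 CPM in established WT (median 10.4) and 5.56 to 11.1 CPM in established Fosl-2(Tg) mice (median 8.16), with a log2 fold change of -0.22 ± 0.22 (SE; edgeR adjusted p = 0.539). Early Wnt5a levels were 4.004 to 13.997 CPM in WT and 6.94 to 13.3 CPM in Fosl-2(Tg) mice, with a log2 fold change of 0.06 ± 0.23. The genotypes overlapped in both cohorts. Sfrp1 had 2.02 to 5.73 CPM in established WT and 1.61 to 6.21 CPM in established Fosl-2(Tg) mice, with a log2 fold change of -0.12 ± 0.32 (SE; edgeR adjusted p = 0.835), and 0.15 ± 0.21 in the early cohort. In established Fosl-2(Tg) mice 6.21 CPM was reached by replicate 2 alone, and the next mouse had 3.20 CPM.

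Sfrp2, a marker of some fibroblast populations, was low and uneven. Established WT mice had 0.150 to 2.71 CPM (median 0.627) and established Fosl-2(Tg) mice 0 to 5.08 CPM (median 0.289), so the Fosl-2(Tg) mean (1.39 CPM) was above and the median below that of WT mice (mean 0.849 CPM). The log2 fold change was 0.62 ± 0.88 (SE; edgeR adjusted p = 0.676) in the established and 0.84 ± 0.49 in the early cohort (adjusted p = 0.846). The 2 Fosl-2(Tg) mice with over 3 CPM stood apart from the other 5, and with 1 mouse left out the log2 fold change ran from -0.13 (without Fosl-2(Tg) replicate 6) to 1.43 (without WT replicate 2). It was -0.62 with the replicate number as a block and -0.46 with limma voom, so its direction was not settled. The 95% interval of the log2 fold change ran from -1.27 to 2.52.

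**Figure D3:**
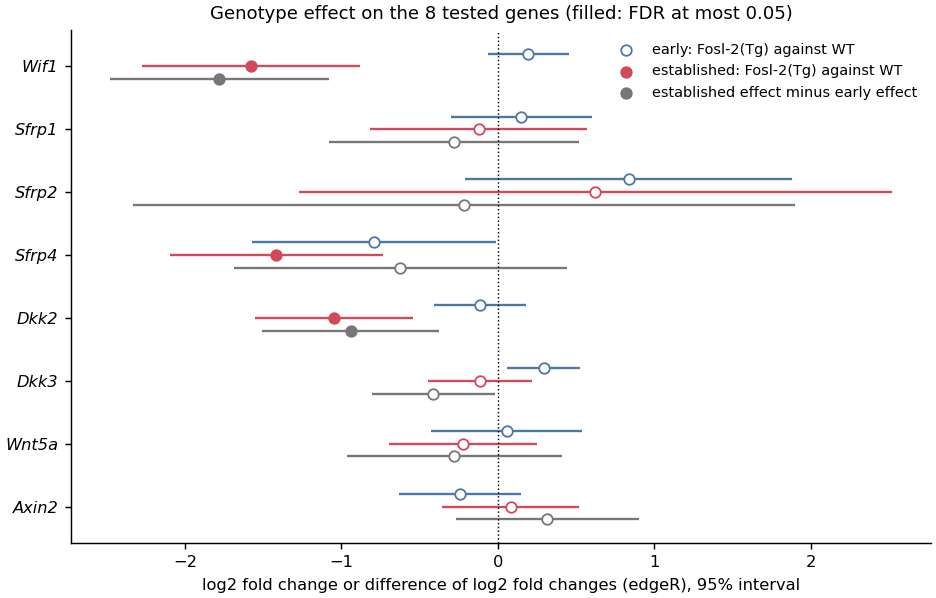
Log2 fold changes of the 8 tested genes (points) with 95% intervals (lines) for Fosl-2(Tg) against WT in the early and the established cohort, and the difference between these effects. Filled points passed an FDR of 0.05, which were Wif1, Sfrp4 and Dkk2 in the established cohort and Wif1 and Dkk2 for the difference.

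Between the 2 WT groups, which differ in stage and nearly always in sex, Sfrp4 was the only 1 of the 8 genes that passed the test, while 5.81% of all genes did. The 5 established WT females had 17.9 to 46.0 CPM, and 4 of them lay above the highest of the 7 early WT males (21.3 CPM), whereas the established WT male had 12.7 CPM, within the early range. The log2 fold change, established over early, was 1.34 ± 0.38 (SE; edgeR adjusted p = 0.0342), and with sex as a covariate it was 0.08 (adjusted p = 0.961), a fit in which 2 established males carry the separation of stage from sex. In that same fit Wif1 was lower in established WT mice, with a log2 fold change of -1.24 (adjusted p = 0.0329), against -0.17 ± 0.25 (SE; adjusted p = 0.722) without the covariate. Stage and sex cannot be told apart here. The Sfrp4 call was also lost without early WT replicates 4, 5 or 6 (adjusted p = 0.0672, 0.0684 and 0.0765) or established WT replicates 2, 3 or 4 (0.0764, 0.0857 and 0.0617).

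Of 99 other Wnt pathway genes, 77 were tested in the early cohort and none passed the FDR with edgeR, DESeq2 or limma voom, with 4 at an unadjusted p under 0.05. In the established cohort 82 were tested, 3 fell and none rose, beside the 6.51% of all genes called and 3.37% called lower. The 3 genes were Pygo1, a nuclear co-factor of beta-catenin, Amer1, a membrane scaffold that works with the Axin complex, and Nkd1, a feedback inhibitor that binds Dishevelled and is itself induced by the pathway. The other 79 did not pass, and at an unadjusted p under 0.05 there were 6 higher and 14 lower genes. The median log2 fold change of the 82 genes was -0.08.

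Pygo1 ranged from 18.2 to 25.4 CPM in established WT mice and from 11.2 to 15.8 CPM in established Fosl-2(Tg) mice. The genotypes did not overlap, and the log2 fold change was -0.77 ± 0.11 (SE; edgeR adjusted p = 0.00586). Amer1 ranged from 36.0 to 44.4 CPM in WT and from 27.1 to 34.9 CPM in transgenic mice at the established stage, again without overlap, with a log2 fold change of -0.36 ± 0.07 (SE; edgeR adjusted p = 0.0192). Both calls held whichever mouse was left out.

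Nkd1 had 8.47 to 18.0 CPM in established WT and 2.45 to 10.8 CPM in established Fosl-2(Tg) mice, which overlapped, with a log2 fold change of -0.99 ± 0.28 (SE; edgeR adjusted p = 0.0486). The Nkd1 call was lost with any of the 6 WT mice or Fosl-2(Tg) replicates 1, 2, 3 or 7 left out (adjusted p from 0.0522 to 0.1). Nkd1 and Axin2 are both induced by beta-catenin, and the log2 fold change of Axin2 in the same mice was 0.08.

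By role, the established counts of lower genes were 0 of 14 ligands, secretion factors and R-spondins, 0 of 18 receptors, 0 of 8 other antagonists, 2 of 26 transduction genes, 1 of 9 targets and feedback genes and 0 of 7 planar polarity genes. None of these groups had a gene that rose. The 8 other antagonists had a median log2 fold change of 0.13, and none of them passed the test. The genotype effect differed between cohorts in 4 of 83 tested genes, always towards a more negative effect in the established cohort, beside the 7.43% of all genes called and 4% called more negative, and in 9 with the replicate number as a block. These were Pygo1 (-0.997 ± 0.180 SE, edgeR interaction term, adjusted p = 0.00389), Nkd1 (-1.21 ± 0.34, adjusted p = 0.0302), Wls, which escorts Wnt ligands to the cell surface (-0.56 ± 0.15, adjusted p = 0.0226), and Btrc, the ubiquitin ligase subunit that recognises beta-catenin (-0.39 ± 0.12, adjusted p = 0.0447). Between the WT groups 3 of 83 genes were higher at the established stage (Wnt9a, Fzd7 and Rspo3) and 4 lower (Ccn4, Celsr2, Ctnnbip1 and Tle1), names that were chosen after their values were seen.

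**Figure D4:**
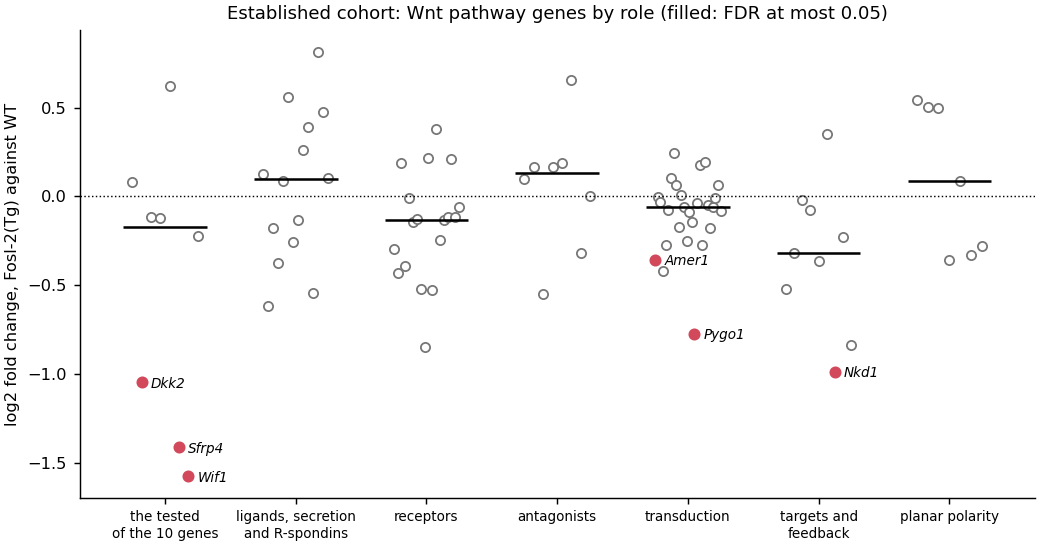
Log2 fold changes of Fosl-2(Tg) against WT in the established cohort for the 8 tested genes of the 10 and for 82 other Wnt pathway genes by role, with 1 point per gene, medians as lines and genes past an FDR of 0.05 filled. Wif1, Sfrp4 and Dkk2 lie at -1.58, -1.41 and -1.05, and of the other genes Nkd1 (-0.99), Pygo1 (-0.77) and Amer1 (-0.36) passed the test.

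The lower levels of Wif1, Sfrp4 and Dkk2 in established Fosl-2(Tg) tendons stood beside lower levels of tendon fibroblast genes. The summed level of the 10 tendon markers was 101556 to 192242 CPM in established WT mice and 7228 to 81160 CPM in established Fosl-2(Tg) mice, without overlap. In established WT mice this sum was mostly type I collagen. Col1a1 averaged 73458 CPM and Col1a2 40701 CPM there, beside 83.5 CPM for Scx and 863 CPM for Tnmd. Mkx, Fmod, Thbs4, Dcn, Kera and Comp each overlapped between the genotypes and did not pass the test. Of the 10 markers 4 fell (Scx, Tnmd, Col1a1 and Col1a2), and all 10 had a negative log2 fold change with a median of -1.22, beside -1.58, -1.41 and -1.05 for Wif1, Sfrp4 and Dkk2. Fosl-2(Tg) replicate 4 had the highest marker sum and the highest Wif1, Sfrp4 and Dkk2 of its group. Replicate 5, the male, had the lowest marker sum, Wif1 and Sfrp4, while the lowest Dkk2 was in replicate 1. In the early cohort the marker sum was 193836 to 548638 CPM in WT and 252732 to 618426 CPM in Fosl-2(Tg) mice, and none of the 10 markers passed the test. The part of the marker levels in the result was not tested.

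**Figure D5:**
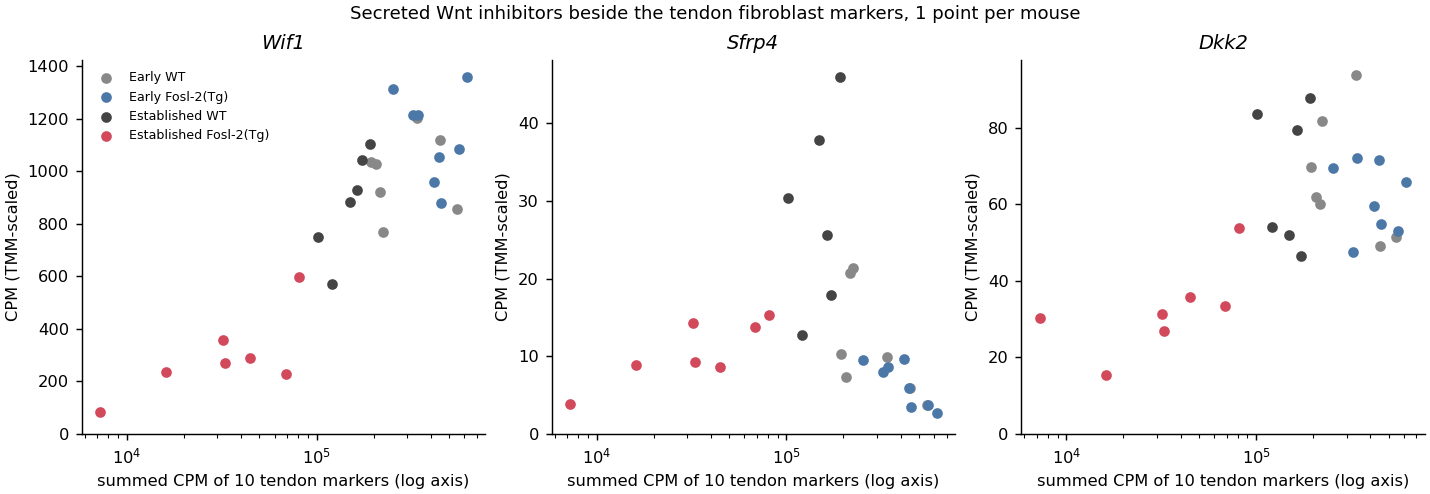
CPM of Wif1, Sfrp4 and Dkk2 against the summed CPM of 10 tendon fibroblast markers (log axis), with 1 point per mouse coloured by group. Established Fosl-2(Tg) mice lie at the left, with marker sums from 7228 to 81160 CPM, and early mice at the right, where Sfrp4 reaches at most 21.3 CPM. The sum is mostly Col1a1 and Col1a2 in WT mice.

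Markers of other cells the tissue could hold were examined in the same way. The 5 genes of the tendon sheath and progenitor list (Ly6a, Pi16, Dpp4, Tppp3, Prg4) summed to 4629 to 6931 CPM in established WT and 1907 to 6832 CPM in established Fosl-2(Tg) mice, and none passed the test. Of 7 macrophage genes 1 rose past the FDR, Cd163, and the sums were 449 to 668 CPM in WT and 569 to 912 CPM in Fosl-2(Tg) mice. None of the 7 had a negative log2 fold change, the median was 0.25, and 3 were higher at an unadjusted p under 0.05 (edgeR). Skeletal muscle genes summed to 66.3 to 19804 CPM in WT and to 49.4 to 6558 CPM in Fosl-2(Tg) mice at the established stage. None of these 10 genes passed the test, but all 10 had a negative log2 fold change, with a median of -1.86. Of 8 cartilage and bone genes 3 could be tested in the established cohort, and their list summed to 21.1 to 39.5 CPM in WT and 4.47 to 28.7 CPM in Fosl-2(Tg) mice. Col2a1, the main collagen of cartilage, fell from 19.0 to 37.1 CPM in WT to 2.96 to 17.7 CPM in Fosl-2(Tg) mice (log2 fold change -1.63 ± 0.35 SE, edgeR adjusted p = 0.0207). Cnmd, which encodes chondromodulin, rose from at most 0.223 CPM in WT to 0.353 to 0.655 CPM (log2 fold change 1.77 ± 0.38 SE, edgeR adjusted p = 0.0207). Cnmd lay near the floor, with means of 0.125 CPM in WT and 0.471 CPM in Fosl-2(Tg) mice, and was untested in the other comparisons. It passed the filter on low counts through the Fosl-2(Tg) mice, where it was higher, so this rise is not read further. Of 5 blood genes 4 were tested and none passed the FDR, with 3 higher at an unadjusted p under 0.05, a median log2 fold change of 2.38 and sums of 8.94 to 20.1 CPM in WT and 10.2 to 126 CPM in Fosl-2(Tg) mice. With the listed muscle, skin and blood genes removed before scaling, 15842 rather than 15862 genes were tested, and the same 3 of 8 genes were called. So few genes were removed that this fit could hardly change a call. None of the tested peripheral nerve, endothelial, adipocyte and skin genes passed the FDR in the established cohort. Their median log2 fold changes were 0.72, -0.53, -0.07 and -0.15, and 1 nerve gene, Mbp, was higher at an unadjusted p under 0.05 (edgeR). The part of these cells in the result was not tested.

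Among all genes, the level of Wif1 was most alike over the 28 mice, after subtracting the group means of log2 CPM, to that of Srcin1 (Pearson's r = 0.86, Spearman's rho = 0.64), which encodes an inhibitor of Src kinase, Pla2g5 (r = 0.86, rho = 0.57), a secreted phospholipase, and Clec3a (r = 0.85, rho = 0.59), a C-type lectin known from cartilage. Sfrp4 was most alike to Esr1 (r = 0.85, rho = 0.86), the oestrogen receptor alpha, Maob (r = 0.83, rho = 0.78) and Csgalnact1 (r = 0.81, rho = 0.83). For Dkk2 the highest values were lower, with Ddah2 (r = 0.69, rho = 0.67), Anp32b (r = 0.68, rho = 0.58) and Tbc1d5 (r = 0.66, rho = 0.65). These are the highest values of all genes and carry no test, and the genes share the same libraries. The 3 genes nearest to Wif1 averaged lower in established Fosl-2(Tg) than in established WT mice, with 24.1 and 3.83 CPM for Srcin1 in WT and Fosl-2(Tg), 184 and 92.4 CPM for Pla2g5 and 16.3 and 2.92 CPM for Clec3a, of which Pla2g5 did not pass the test (edgeR adjusted p = 0.0526). None of the 6 genes nearest to Sfrp4 and Dkk2 passed the test in the established cohort, with log2 fold changes of -0.25 for Esr1, -0.19 for Maob, 0.08 for Csgalnact1, -0.33 for Ddah2, -0.03 for Anp32b and 0.08 for Tbc1d5 (edgeR adjusted p from 0.187 to 0.885).

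Within groups, none of the 45 pairs of the 10 genes passed an adjusted p of 0.05 over the 28 mice. Of these pairs 17 held Frzb or Lef1, which were too low to be tested, and the adjustment covered them as well. Whether a pair would pass among the tested genes alone was not tested. The closest were Wif1 with Axin2 (Pearson's r = 0.60, permutation p = 0.00259, adjusted 0.0634; Spearman's rho = 0.56, permutation p = 0.00278, adjusted 0.0783) and Sfrp2 with Dkk3 (r = 0.62, permutation p = 0.00282, adjusted 0.0634; rho = 0.58, permutation p = 0.00348, adjusted 0.0783). Without the 2 mice farthest from the median of Wif1, r was 0.48, and without those farthest from the median of Sfrp2 it was 0.57. Within the cohorts r was 0.48 early and 0.72 established for Wif1 with Axin2, and 0.57 and 0.65 for Sfrp2 with Dkk3.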

How the data were processed

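Bulk RNA-sequencing of tail tendon from 28 mice was used, with 1 library per mouse and groups taken from the sample labels. The authors depleted ribosomal RNA, mapped reads with STAR to GRCm39 (GENCODE release M26) and counted them with featureCounts, and the deposited values are raw counts per gene. Strand setting and the treatment of multiply mapped reads are not given in the sources used here. Names, positions and exon lengths came from GENCODE release M39 on the same assembly, which named 25505 of 25719 identifiers.

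Counts were filtered with filterByExpr (minimum count 10, total 15), TMM-scaled and compared with edgeR 4.0.16 (R 4.3.3) by the quasi-likelihood test without covariates and p-values adjusted after Benjamini and Hochberg across the genes tested. An interaction term in a fit of all 4 groups gave the difference between cohorts. Log2 CPM used a prior count of 2. Pairs of genes were tested with 100000 permutations, two-sided. The fits were also run on counts simulated from the model they assume, which does not test how well that model holds for these data. The members, gene lists and tests were chosen with earlier results of these data known. Text names the 10 genes, other Wnt genes past the FDR in a genotype comparison (at most 8 per cohort), for each called member the 3 genes of highest r, and list markers.

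Same-numbered early WT and Fosl-2(Tg) mice deviated together in all 7 pairs (correlations of 0.129 to 0.363). Mice with different numbers were not compared, and no label says what the number marks. Whether it pairs early mice is therefore not settled, and the main fits leave it out. With the number as a block, 11 rather than 6 of all genes were called early, and 0 of the 10. Alternatives were DESeq2 1.42.0, RLE scaling, no filter, a mean of at least 1 CPM, limma 3.58.1 voom with quality weights, the block, all 28 mice together, muscle, skin and blood genes removed, sex as a covariate, established females alone, a prior count of 0.5 and each mouse left out. The libraries of a group are separate mice.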

Additional observations from a re-analysis of the deposited data

Results flagged for a closer look

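In Sfrp1, established Fosl-2(Tg) replicate 2 (6.21 CPM, 294 counts) lay far above the other mice of its group, of which the next had 3.20 CPM. In Sfrp2, established WT replicate 2 (2.71 CPM, 98 counts) lay far above the next mouse of its group (0.650 CPM). Of 40 groups of mice examined for such a mouse (10 genes in 4 groups), 2 held one, and chance gives about 1 in 20.

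The genotype effect differed between the cohorts (edgeR interaction term, established minus early, log2 scale) by -1.78 for Wif1 (adjusted p = 0.00444), -0.94 for Dkk2 (adjusted p = 0.0371), -0.997 for Pygo1 (adjusted p = 0.00389), -1.21 for Nkd1 (adjusted p = 0.0302), -0.56 for Wls (adjusted p = 0.0226) and -0.39 for Btrc (adjusted p = 0.0447). The cohorts differ in sex as well as stage. With sex as a covariate the difference was -1.90 for Wif1 and -0.94 for Dkk2, a fit in which the sexes are separated from stage by 2 established males.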

How the results depend on the processing

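In the established cohort the same 3 of the 10 genes (Wif1, Sfrp4, Dkk2) were called under all 10 alternatives other than leaving out 1 mouse, established females alone (11 of 13 mice) among them, and with 1 mouse left out 1 to 3 were called, only Wif1 remaining without WT replicate 2 or Fosl-2(Tg) replicate 2. The other Wnt genes called numbered 12 with DESeq2, 13 with limma voom, 7 with all 28 mice in 1 fit, 7 with sex as a covariate and 2 to 6 with 1 mouse left out, against 3, and the 6 came without Fosl-2(Tg) replicate 4. For the difference between cohorts 1 of the 10 genes was called with limma voom and 1 in established females alone, and 1 to 2 with 1 mouse left out, against 2, Wif1 being called each time. The Dkk2 call was lost in 13 of the 28 fits with a mouse left out (early WT replicates 3, 6 and 7, early Fosl-2(Tg) 2, 4, 6 and 7, established WT 2, 4 and 6, established Fosl-2(Tg) 1, 2 and 5; adjusted p at most 0.0713), and the Nkd1 call without early WT replicate 2, established WT 1 or 4 or established Fosl-2(Tg) 1 (at most 0.0546). The other Wnt genes numbered 10 with DESeq2, 8 with limma voom, 9 with the replicate block and 2 to 9 with 1 mouse left out, against 4. Between WT groups 0 to 1 of the 10 genes were called with 1 mouse left out, against 1, and other Wnt genes numbered 12 with limma voom, 3 with sex as a covariate and 3 to 10 with 1 mouse left out, against 7. Pairs past an adjusted p of 0.05 numbered 0 to 2 with 1 mouse left out, against 0 (2 without early WT replicate 2 and 1 without established Fosl-2(Tg) replicate 3). The cause of these changes was not tested. Among the 8 tested genes no early call was gained under any alternative.

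Same-numbered established mice correlated above 0.1 in 4 of 6 pairs, with correlations from -0.223 to 0.688. Whether the number pairs established mice is therefore not settled. With the replicate number as a block 3 of the 10 genes were called in the established cohort, the same ones as without it, and 3 other Wnt genes, with Nkd1 lost (adjusted p = 0.0752) and Celsr1 gained. The block changed no call among the 10 genes early or in the difference between cohorts. No paired fit was made between WT groups, whose numbers lie within stages. Sex and females-only fits were not run early, where all mice were male. Differences in genes at a few counts (Frzb, Lef1, Sfrp2) are limited by depth, and p-values in the established cohort rest on 13 mice.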
